A study of Homo sapiens with 6 samples.

Results

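The RUNX genes RUNX1, RUNX2 and RUNX3 encode transcription factors that bind DNA through a Runt domain, together with the beta subunit CBFB. RUNX1 is known for its part in blood cell formation, RUNX2 for bone formation and RUNX3 for T cells and sensory neurons. Each gene has a distal promoter, P1, and a proximal promoter, P2, whose transcripts differ in the first amino acids of the protein. The genes were selected on earlier results of these data, in which RUNX1 had a high number of bound regions, so their region counts, folds and summit motifs are given as descriptions and were not tested. The 3 genes were taken from 20033 protein-coding genes of the annotation, and every region overlapping a gene body or the 100 kb on either side was counted. This gave 30 of the 19108 regions of cells with full-length ZNF469 and 0 of the 54 regions of cells with dZF.

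ZNF469 binding was measured by CUT&RUN, in which an antibody tethers a nuclease to chromatin and the released fragments are sequenced. The cells were LX-2, an immortalized human hepatic stellate cell line, and the 6 libraries formed 2 groups of 3. The full_length group (clone3.4) carried ZNF469 and the dZF group (clone3.1) carried ZNF469 from which most of the zinc fingers had been deleted. In both groups the protein had an N-terminal HA tag, was expressed from a doxycycline-inducible piggyBac transgene, was induced with 1 µg/mL doxycycline for 24 h in medium with 2-phospho-L-ascorbic acid, and was captured with an antibody against ZNF469 itself. The ZNF469 gene of LX-2 was still present in both groups. Each construct came with 1 clone number, so the construct and the line cannot be told apart. The comparison asks where chromatin is bound by ZNF469 and whether the deleted fingers are needed for it. One list of regions per group was analysed, with no value per library, so no difference has a replicate error and no test between the groups was possible. The cell type could not be checked against marker genes, because RNA was not measured in these libraries.

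In the full-length list, RUNX1 had 23 regions, RUNX2 had 7 and RUNX3 had none. The dZF list had no region in any of the 3 windows. Of all protein-coding genes, 33.6% held a full-length region in the body and 76.7% held one in the body or its 100 kb flanks, so a region near RUNX1 or RUNX2 is what most genes had. A dZF region lay in such a window for 0.439% of genes, so a count of 0 is what nearly all genes had in the dZF list as well. The nearest dZF region was 24462 kb from the RUNX1 body, 7331 kb from RUNX2 and 24719 kb from RUNX3.

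The sequences that carried the summits were read from the hg38 genome on its plus strand. The letters of 2 motifs were searched on both strands of the window reaching 50 bp to either side of each summit. The AP-1 motif, bound by dimers of FOS and JUN proteins, was TGAGTCA, which reads TGACTCA on the other strand. The RUNX motif, bound by the RUNX proteins themselves, was TGTGGT or TGCGGT. Below, matches are in capitals. The windows of RUNX2 region 7 and RUNX1 region 3 are shown for their AP-1 and RUNX motif. RUNX1 regions 12 and 8 complete the AP-1 windows outside exons. Regions 20 and 18 of RUNX1 have an AP-1 match in a window that touches an exon, so 10 bases on either side of the match are given. RUNX1 regions 19 and 17, which hold neither motif, are shown as the region with the highest pileup and the one closest to P2. All but RUNX2 region 7 and RUNX1 region 3 were chosen for display after their values were seen. Regions are numbered from the 5′ end of the gene strand.
RUNX2 region 7, chr6:45703193-45703293: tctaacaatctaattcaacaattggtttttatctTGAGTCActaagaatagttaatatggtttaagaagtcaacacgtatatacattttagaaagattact
RUNX1 region 3, chr21:35745719-35745819: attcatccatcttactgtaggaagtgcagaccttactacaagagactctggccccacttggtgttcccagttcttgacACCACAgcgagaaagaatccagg
RUNX1 region 12, chr21:35198205-35198305: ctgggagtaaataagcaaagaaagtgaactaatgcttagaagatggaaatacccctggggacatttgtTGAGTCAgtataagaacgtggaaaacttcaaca
RUNX1 region 8, chr21:35317096-35317196: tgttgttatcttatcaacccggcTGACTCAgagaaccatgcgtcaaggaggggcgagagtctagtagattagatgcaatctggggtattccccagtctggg
RUNX1 region 20, chr21:34836400-34836426: agccatggtgTGACTCAgtgcctctgg
RUNX1 region 18, chr21:34888128-34888154: atcagctgggTGACTCAgccctgactc
RUNX1 region 19, chr21:34882160-34882260: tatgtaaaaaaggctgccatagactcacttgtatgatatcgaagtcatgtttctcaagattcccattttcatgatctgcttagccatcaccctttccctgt
RUNX1 region 17, chr21:34888733-34888833: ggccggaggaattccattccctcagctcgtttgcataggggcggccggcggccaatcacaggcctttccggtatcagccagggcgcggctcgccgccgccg

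RUNX1 lies on the minus strand of chromosome 21. Its gene record, the span of all its annotated transcripts, runs from 34787801 to 36004667 in hg38 and is 1217 kb long. The usual P1 starts fall between 35049270 and 35049344, but 1 transcript with the P1 coding start begins at 36004667, which is 955 kb farther upstream. That transcript sets the length of the record and places most regions upstream of the usual P1. The body held 21 regions, or 1.73 per 100 kb (exact 95% Poisson interval 1.07 to 2.64), compared with 0.911 per 100 kb over all protein-coding gene bodies. Within the MANE Select transcript alone, from 34787801 to 35049302, there were 7 regions over 262 kb, or 2.68 per 100 kb (1.08 to 5.52). All such intervals cover counting error only, and neighbouring regions are not independent.

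Along the gene, the regions of RUNX1 had their highest density after P2. The stretch from P2 to the end of the MANE Select transcript held 5 regions, or 4.96 per 100 kb (1.61 to 11.6). The 161 kb between P1 and P2 held 2 regions, or 1.25 per 100 kb (0.151 to 4.50), and the 955 kb upstream of P1 held 14, or 1.47 per 100 kb (0.801 to 2.46). The intervals of these stretches overlapped. The 5′ and 3′ flanks held 1 region each. No region lay within 3 kb of the usual P1, the nearest being region 15, 26.5 kb upstream.

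**Figure D1:**
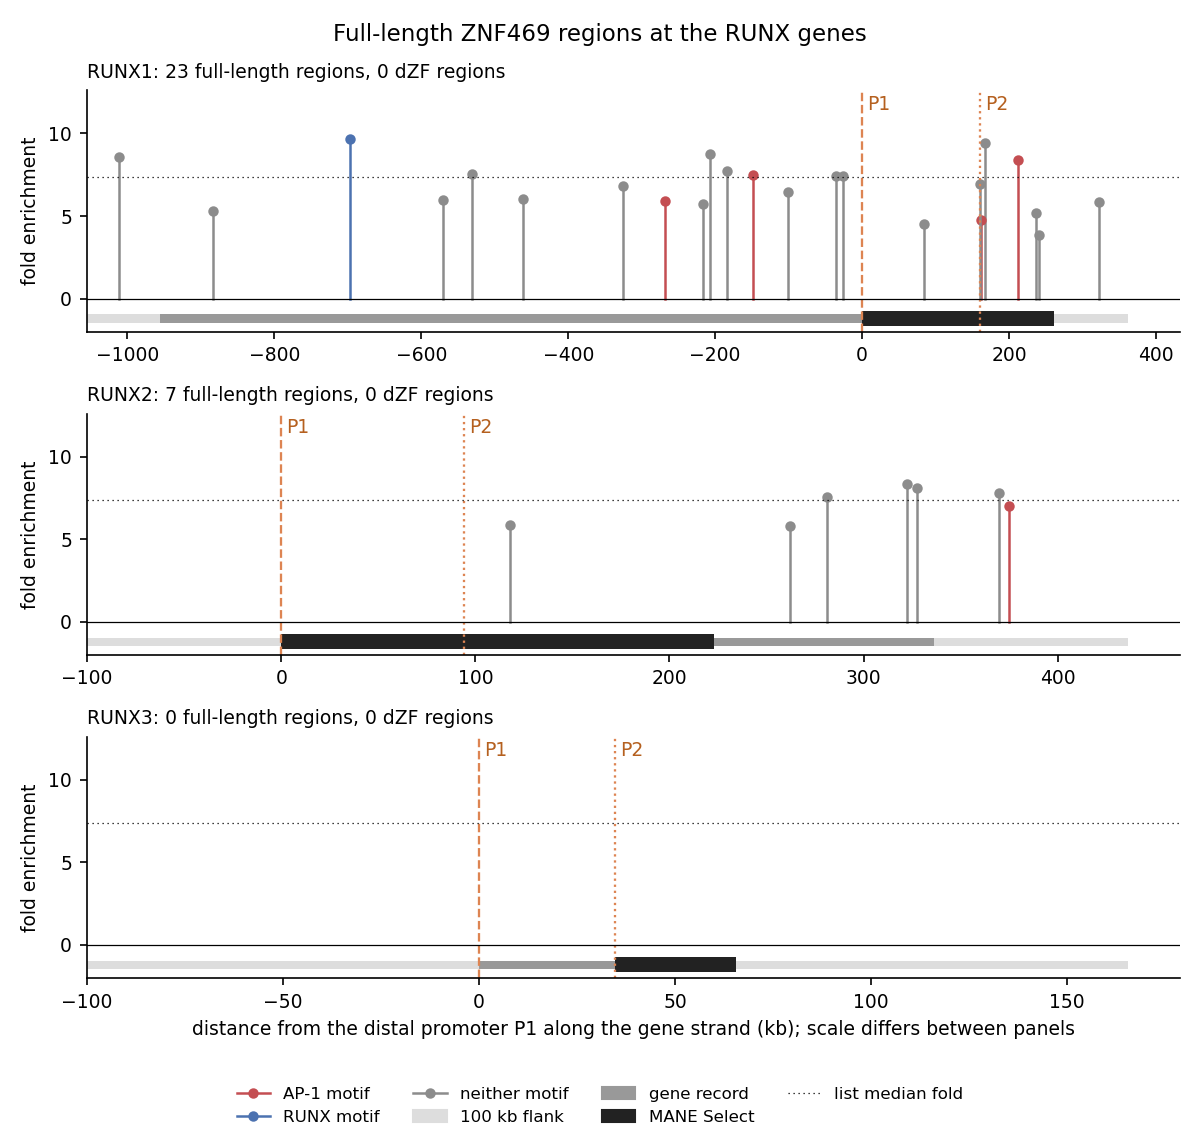
Each stem is 1 full-length region, placed by the distance of its summit from P1 along the gene strand in kb (x axis, scaled for each gene) with its fold enrichment (y axis), and coloured by its summit motif. Bars under each panel mark the 100 kb flanks, the gene record and the MANE Select transcript, dashed and dotted lines P1 and P2, and the horizontal dotted line the list's median fold of 7.36. Of the 23 RUNX1 regions 14 sit in the record upstream of P1, the 7 RUNX2 regions all sit after P2, and the RUNX3 panel holds none.

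A pair of regions lay at the proximal promoter of RUNX1. Region 17 (chr21:34888665-34888883) had its summit 93 bp upstream of the P2 start at 34888690 and region 18 (chr21:34887960-34888342) had its summit 577 bp downstream of it. Region 17 was enriched 6.96-fold, from a summit pileup, the depth of fragments there, of 32 (95% counting interval 21.9 to 45.2) over a local background of 3.74. Region 18 had a fold of 4.78 from a pileup of 23 (14.6 to 34.5) over a background of 4.02. The counting intervals of the pair overlapped. By fold, 40.4% of the list was below region 17 and 4.42% below region 18. The summit window of region 17 was 69.3% G and C, the highest of the 30, where the list had a median of 46.5%.

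The RUNX1 region with the most fragments lay just inside the gene from P2. Region 19 (chr21:34881536-34882388) had its summit 6.48 kb downstream of P2, in intron 4 of the P1 transcript ENST00000675419. Its pileup was 56 (42.3 to 72.7) over a background of 5.04, for a fold of 9.44 and a −log10 p of 38.7. That pileup ranked 232 in the full-length list, and its interval lay above that of region 18 but overlapped that of region 17. Region 19 also had the highest local background of the 30 regions. An antisense lncRNA gene, ENSG00000286153, overlaps both region 19 and region 20 (chr21:34836065-34836919), whose summit was 149 bp downstream of an annotated start of that lncRNA and 52.3 kb downstream of P2. Region 20 reached 8.41-fold enrichment from 27 fragments (17.8 to 39.3). Regions 21 and 22, both in intron 7, had folds of 5.20 and 3.85 from pileups of 23 and 17, and the latter fold was the lowest of the 30. Local background was 2.33 to 5.04 for the regions after P2 and 0.865 to 2.38 for those upstream of P1. Regions 21 and 11, with 23 fragments each, had folds of 5.20 after P2 and 7.71 upstream of P1 over backgrounds of 3.62 and 2.11. At an equal pileup the fold is set by the background, so this pair only illustrates how fold is computed.

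Between the promoters, region 16, in intron 2 and 83.6 kb downstream of P1, had the lowest pileup of the 30 regions at 9 (4.12 to 17.1), with a fold of 4.51.

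The 14 regions upstream of P1 had folds of 5.32 to 9.65 (median 7.12) and pileups of 10 to 26. From region 2 to region 15 the folds were 5.32, 9.65, 5.98, 7.52, 6.04, 6.84, 5.90, 5.76, 8.74, 7.71, 7.51, 6.45, 7.40 and 7.41. The pileups in the same order were 12, 17, 16, 19, 12, 15, 10, 12, 26, 23, 24, 18, 24 and 18 fragments. The folds of regions 3 and 10 stood highest. In fragments, regions 10 to 12 and 14 stood highest, with 23 to 26 each. Region 3 (chr21:35745691-35745979), at −696 kb from P1 (negative is upstream), had the highest fold of the 30, with 85.9% of the list below it. That fold came from only 17 fragments (9.90 to 27.2) over a background of 0.865. This was the lowest background in the whole list, a value shared by region 8 and by at least 3% of the list. Region 10 (chr21:35256468-35256999), 207 kb upstream, reached 8.74 with 26 fragments (17.0 to 38.1) over a background of 2.09. All 14 were in introns of the long transcript, 9 of them in its intron 9, and region 5 was 1067 bp downstream of the start of ENST00000467692, a noncoding RUNX1 transcript, and so was classed as a promoter region.

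Both flanking regions of RUNX1 belonged to other genes. Region 1 (chr21:36060086-36060501), enriched 8.55-fold from 16 fragments, had its summit on an annotated start of SETD4, a lysine methyltransferase gene. Region 23 (chr21:34726642-34726958), enriched 5.87-fold from 12 fragments, was inside the lncRNA gene LINC00160. Just outside the window, the nearest regions had folds of 10.6, at 31.4 kb past the upstream limit, and 5.69, at 46.7 kb past the downstream limit.

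**Figure D2:**
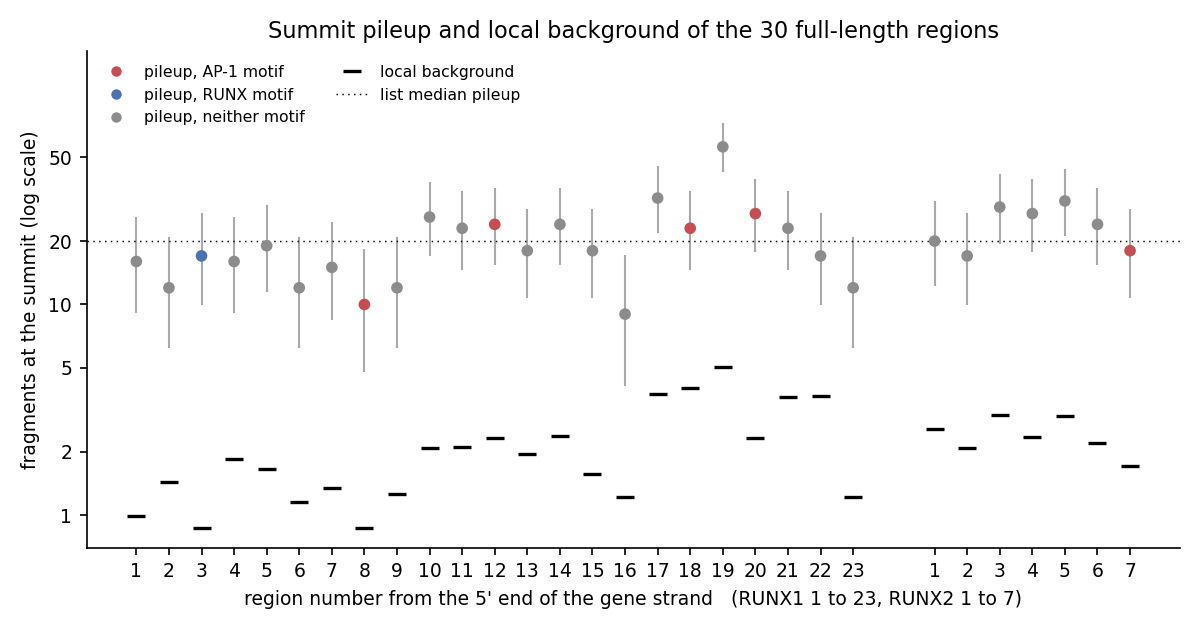
Points give the summit pileup in fragments (log y axis) of the 23 RUNX1 and 7 RUNX2 regions, in order from the 5′ end of the gene strand, with exact 95% Poisson intervals for counting error as bars and colour for the summit motif, and short black lines give the local background. RUNX1 region 19 stands highest at 56 fragments and region 16 lowest at 9, with the list's median of 20 as the dotted line.

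RUNX2 lies on the plus strand of chromosome 6, from 45328157 to 45664349, and is 336 kb long. Its body held 5 regions, or 1.49 per 100 kb (0.483 to 3.47), and its 3′ flank 2 more. The P1 starts fall between 45328157 and 45328727 and the P2 starts between 45422036 and 45422577. No region lay within 3 kb of either promoter. The 93.9 kb between P1 and P2 and the 5′ flank held none, although SUPT3H, a histone acetyltransferase complex subunit gene that overlaps P1 on the other strand, had 3 regions in its own body outside this window. Of the 7, only region 1 lay within the MANE Select transcript (45328330 to 45551082), which gives 0.449 per 100 kb (0.0114 to 2.50).

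Most regions of RUNX2 lay past the end of that transcript. Regions 2 to 5 lay in the last 113 kb of the gene record, at 3.53 per 100 kb (0.962 to 9.04), and regions 6 and 7 in the intergenic flank beyond. The interval of that density overlaps the one for the MANE Select transcript (0.0114 to 2.50). Another coding P1 transcript, ENST00000576263, runs to 45664349, so regions 2 to 5 lie within its span. In order from region 1, the folds were 5.89, 5.82, 7.54, 8.34, 8.09, 7.80 and 7.01. The pileups were 20, 17, 29, 27, 31, 24 and 18 fragments. Regions 3 to 6 were the highest on both scales, and regions 1, 2 and 7 were lower in pileup, though the counting interval of region 5 (21.1 to 44.0) overlapped that of region 2 (9.90 to 27.2). Region 1 (chr6:45445573-45446427), in intron 5 of the P1 transcript ENST00000647337, was 23.8 kb downstream of P2 and 118 kb from P1. Region 4 (chr6:45650496-45650969) had the highest fold of the RUNX2 window and region 5 (chr6:45655763-45656318) the highest pileup. Past the window the nearest regions were 111 kb upstream, with a fold of 6.80, and 921 kb downstream, with a fold of 5.99.

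RUNX3 lies on the minus strand of chromosome 1, from 24899511 to 24965121. Its body is 65.6 kb long, with P1 at 24965010 and P2 at 24930276. With its flanks the window covered 266 kb, in which 0 full-length regions allow a density of up to 1.39 per 100 kb, above the 0.911 of all gene bodies. That average is for bodies without flanks, and for the RUNX3 body alone the limit was 5.62 per 100 kb. The count of 0 therefore does not set RUNX3 apart from the average density of bodies. Counted with flanks, 76.7% of protein-coding genes had a region, so RUNX3 was in the minority without one. The nearest region (chr1:24770308-24770546) was 29.1 kb past the downstream limit of the window, in the chloride channel gene CLIC4, and was enriched 8.24-fold from 27 fragments. On the other side the nearest was 189 kb past the limit, with a fold of 8.98.

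Against the full-length list, the RUNX regions were ordinary in strength. Their folds ran from 3.85 to 9.65 with a median of 6.99 (95% interval of the median 5.90 to 7.54), while the list had a median of 7.36 and reached 49.6. Their pileups ran from 9 to 56 with a median of 18.5 (17.0 to 24.0), beside 20 in the list. Both intervals include the list's median. Above the list's median were 14 of 30 by fold and 13 of 30 by pileup, and above its upper quartile were 3 and 4. All 3 regions in the upper quartile by fold, regions 3, 10 and 19, were from the RUNX1 window. By local background, 18 of 30 were above the list's median of 1.82.

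**Figure D3:**
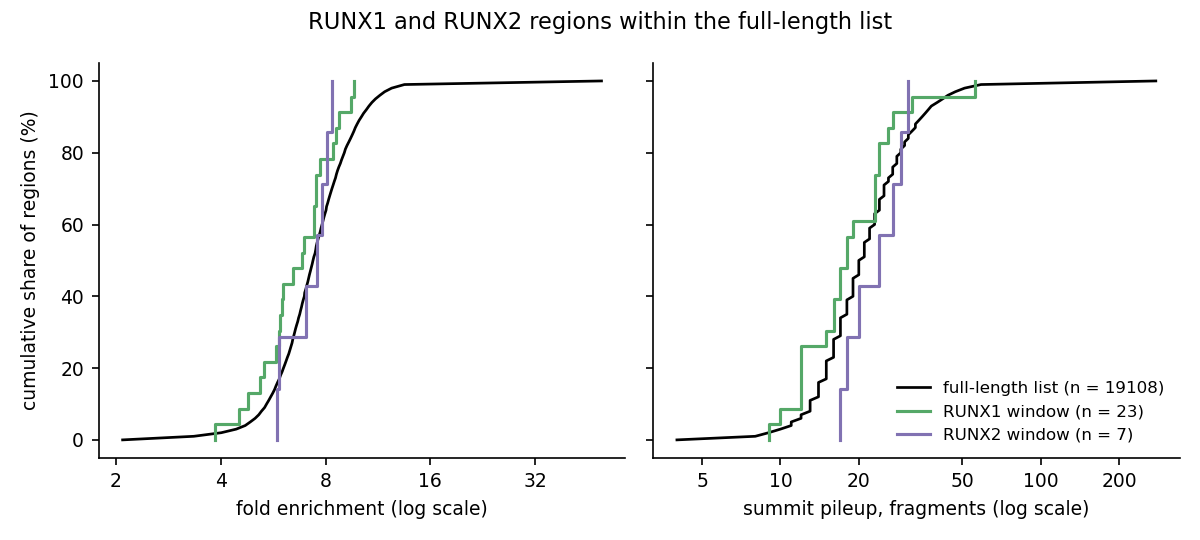
Cumulative share of regions in percent (y axis) against fold enrichment (left, log x axis) and summit pileup in fragments (right, log x axis) for the RUNX1 window, the RUNX2 window and the whole full-length list. The RUNX1 curve, with a median fold of 6.84, and the RUNX2 curve, with 7.54, run along that of the list, whose median is 7.36 and whose upper tail reaches folds that neither window has.

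The AP-1 motif was found in 5 of the 30 summit windows (16.7%, exact 95% binomial interval 5.64 to 34.7), against 19.3% in the full-length list. The interval includes the share in the list. By class, 3 of the 25 intronic or distal intergenic regions held it (12%, 2.55 to 31.2), against 23.2% of such regions in the list, and 2 of the 5 promoter regions (40%, 5.27 to 85.3), against 13.2%. The members were thus below the list in one class and above it in the other, and both intervals include the list's share. In windows of the same length 1 kb to either side of the summits it was found in 1 of 60 (1.67%), against 1.56% for the list. The 5 regions were RUNX1 regions 8, 12, 18 and 20 and RUNX2 region 7, of which regions 8 and 12 were named after their values were seen. Their matches lay 13 to 28 bp from the summit, with a median of 22.0 bp, the same as in the list. Folds were 4.78 to 8.41 with the motif (median 7.01) and 3.85 to 9.65 without it (median 6.96).

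The RUNX motif was found in 1 of 30 summit windows (3.33%, 0.0844 to 17.2), against 10.8% in the list. The match was in RUNX1 region 3, 31 bp from the summit. At 1 kb to either side 5 of 60 windows held it (8.33%), against 7.75% for the list. None of the 30 windows held both motifs and 24 held neither (80.0%), compared with 1.92% and 71.9% in the list. With 30 windows, the interval of the RUNX motif share still includes the share in the list. The motif GGAATG of TEAD factors, which pair with YAP1 and WWTR1, was added after the data were seen and was found in 3 of 30 windows (10%), against 11.7% in the list.

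**Figure D4:**
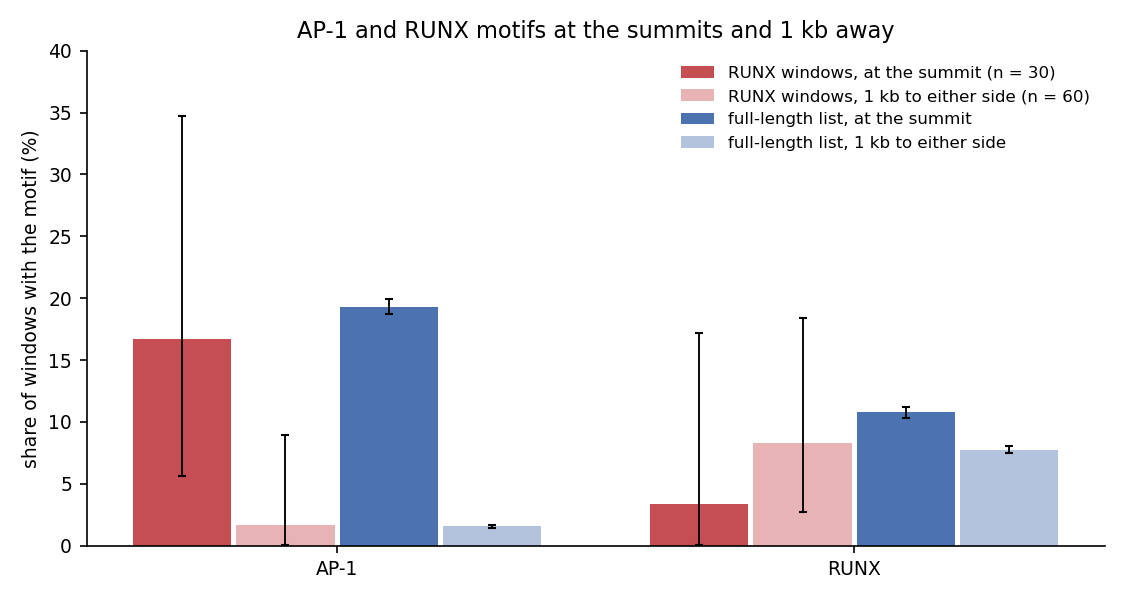
Bars give the share in percent (y axis) of windows, 50 bp to either side of the centre, that hold the AP-1 or the RUNX motif, for the RUNX gene regions and the full-length list, at the summit and 1 kb to either side, with exact 95% binomial intervals for counting error. AP-1 is at 16.7% and 19.3% at the summits and below 2% beside them, whereas the RUNX motif is at 3.33% and 10.8% at the summits and at 8.33% and 7.75% beside them.

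By annotation, 23 of the 30 regions were intronic (76.7%, 57.7 to 90.1), 5 lay within 3 kb of a transcription start (16.7%, 5.64 to 34.7) and 2 were distal intergenic. In the list 35.8% were intronic and 39.3% promoter. The regions were selected in and around gene bodies, so these shares are set in part by that choice. All 5 promoter regions were in the RUNX1 window, and 2 of them, regions 17 and 18, were at P2.

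RUNX1 ranked 59 of the 73 genes that had 10 or more regions when these were ordered by regions per 100 kb. This rank rests on the gene record of 1217 kb. The MANE Select transcript of RUNX1 held 7 regions, fewer than 10, at 2.68 per 100 kb. The neighbours of RUNX1 in that order were PTPRM, a receptor tyrosine phosphatase gene, with 1.79 and FRMD4A, a cell polarity scaffold gene, with 1.71. Next came NAV2 with 1.82, KCNMA1 with 1.95, NRG1 with 1.64 and FOXP1 with 1.59. These genes were picked for having densities nearest to that of RUNX1. Their place within its counting interval, 1.07 to 2.64, follows from that choice.

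Of 38 genes of the RUNX pathway, 17 had a full-length region in the body (44.7%, 28.6 to 61.7), and the interval includes the 33.6% of all protein-coding genes. Counted with flanks of 100 kb, as for the RUNX genes, 33 of the 38 had a region, among them 15 of 17 targets, beside 76.7% of all genes. The 17 bodies held 45 regions and 0 dZF regions. CBFB, the beta subunit that steadies RUNX proteins on DNA, had 1 region, with a fold of 13.0, a pileup of 37 and an AP-1 motif. That fold was above every region of RUNX1 and RUNX2. Among the DNA-binding partners, SMAD3, which carries TGF-β signals to the nucleus, had 9 regions and ETS1, an ETS-domain factor that binds next to RUNX1, had 8. These are 6.85 and 6.21 per 100 kb. SPI1, CEBPA and GATA1, factors of blood cells, had none in the body.

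Coactivators had a region in the body in 4 of 6 genes (66.7%, 22.3 to 95.7) and corepressors in 7 of 9 (77.8%, 40 to 97.2), beside 33.6% of all protein-coding genes. The interval includes that share for the coactivators and lies above it for the corepressors, whose genes were listed with earlier results known, so this is a description. Per 100 kb of body, the corepressors had 0.825 regions and the coactivators 1.42, beside 0.911 over all protein-coding genes. Counted with flanks of 100 kb, 8 of the 9 corepressors and 5 of the 6 coactivators had a region, beside 76.7% of all genes. YAP1 and WWTR1, the coactivators of the Hippo pathway, had 4 each, the histone acetyltransferase genes KAT6B and CREBBP had 3 and 2, and EP300 and KAT6A had none. Among the corepressors, TLE4, a Groucho family member, SIN3A, a scaffold of a histone deacetylase complex, and RUNX1T1 had 2 each, CBFA2T2 had 1 with a fold of 13.9, and TLE1, TLE2 and HDAC4 had 1 each. TLE3 and CBFA2T3 had none. Of 17 known targets of RUNX proteins, 3 had a region in the body (17.6%, 3.80 to 43.4), and this interval also includes 33.6%. CSF1R, the receptor of a macrophage growth factor, had 2, and ZBTB7B, a factor of CD4 T cells, and BCL2L11, which promotes apoptosis, had 1 each. The bone matrix genes SPP1, BGLAP and IBSP had none. The targets had a median length of 15.9 kb, compared with 106 kb for the corepressors, 139 kb for the coactivators and 27.5 kb for all protein-coding genes. The part of gene length in these counts was not tested.

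**Figure D5:**
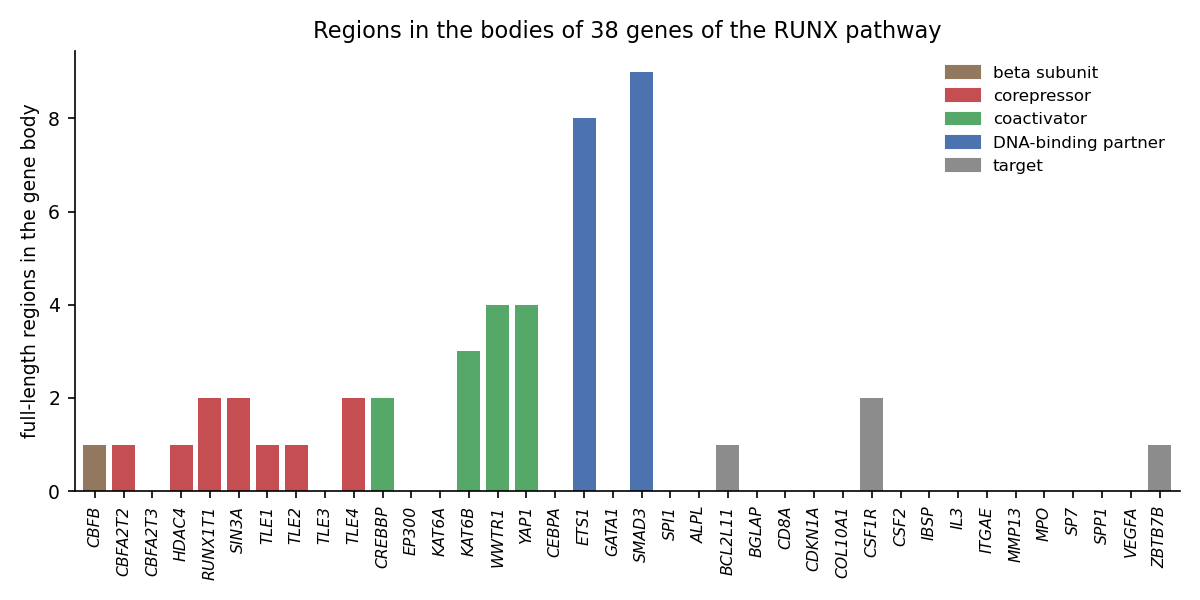
Bars give the number of full-length regions in the body of each of 38 genes of the RUNX pathway (y axis), coloured by the role of the gene. SMAD3 with 9 and ETS1 with 8 stand highest, and 21 genes have none.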

How the data were processed

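CUT&RUN for ZNF469 was done on 6 libraries of LX-2 cells, and the authors deposited 1 list of regions per group. Per the submitters' processing notes, Bowtie2 2.3.4.3, MACS2 2.2.5, deepTools 3.5.1 and R 4.2.1 were used with hg38. Use of a control library is not given in the sources used here, nor is the depth of each library. Each deposited record holds an irreproducible discovery rate score (540 to 1000 in the full-length list), the fold enrichment ratio of the summit over the local background, and a −log10 p. The deposited −log10 q values were not used.

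The fold and −log10 p were solved for a whole-number pileup k and background b, with fold = (k + 1)/(b + 1) and a Poisson tail for p. Whether the caller piled up fragments or extended reads is not given in the sources used here, and k is called fragments. All records of both lists gave a whole number, with −log10 p matched to within 0.001. GENCODE 44 gave gene bodies, starts and classes. P1 and P2 starts were told apart by the first amino acids of the coding sequence, read from hg38. The search for motifs, overlaps and pileups was tested on simulated data. Intervals are exact Poisson or Clopper-Pearson intervals at 95%. Python 3.11.15, pandas 2.3.3, scipy 1.17.1, pysam 0.24.0 and Biopython 1.88 were used.

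The members and gene lists were chosen with earlier results of these data known. Regions named by rule were, in each window, the 5 with the highest fold and the 5 with the highest pileup. The rule also took those within 3 kb of P1 or P2 and those with a RUNX motif in the summit window. Other regions described by number fall outside this rule and were picked with their values known. Summit windows were to be shown for up to 3 named regions with each motif, leaving out any that touched an exon. The genes nearest to RUNX1 in regions per 100 kb were named among those with 10 or more regions. Bodies set to the MANE Select transcript and the TEAD motif were added after the data were seen.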

Additional observations from a re-analysis of the deposited data

How the results depend on the processing

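No paired analysis was possible because each group has 1 list with no value per library, and for the same reason no library could be left out. Of 45 alternatives over 9 results, 35 stayed within the limits set for a change (a count within 1.5 times, a value within its counting interval) and 10 moved. The total of 30 regions fell to 14 among the upper 50% of the list by fold and to 3 among the upper 25%. Such a cut of the list can only lower the total. With the MANE Select transcript as the body, an alternative chosen after the data were seen, it was 14 with flanks of 100 kb and 8 without flanks. With flanks of 200 kb RUNX3 had 4 regions instead of 0. The AP-1 share rose from 16.7% to 40% within 100 bp of the summit and to 53.3% over the whole region, beside 32.3% and 44.1% in the list. A wider window around the summit can only raise a motif share. The RUNX share was 0% within 25 bp and 0% for TGTGGTT, beside 5.48% and 3.85% in the list, and 26.7% over the whole region, beside 36.2%. The median fold was 7.95 in the upper 50% by fold, beside 8.66 for the list under the same choice, a rise that the choice itself fixes. The count of dZF regions was 0 in every window under each alternative run. With the nearest dZF region at least 7331 kb from any of the bodies, no alternative could have changed this. These counts are among the 35 that stayed. Summit pileups of 9 to 56 fragments limit the precision of single folds.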
